A study of Mus musculus with 10 samples.

Results

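The alternative complement pathway was followed here through 4 genes, Cfd, C3, Cfb and Cfp, in 3 regions of the mouse heart. C3 and Cfb encode the proteins that form the pathway's C3 convertase, Cfd the protease that activates it and Cfp a protein that stabilises it. Their probes were chosen by identity alone, as every probe whose RefSeq accession in the scanner files belongs to one of the 4 symbols. This gave 8 probes, 2 for each gene, of 56605 probes and 22911 named genes on the array. All 8 were bright enough to be tested, among 30234 probes that were.

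Total RNA came from C57BL/6N mouse hearts cut into right ventricle (RV, 4 arrays), left ventricle (LV, 3 arrays) and ventricular septum (3 arrays). No genetic change, drug or operation is named for any of the groups, and the age and sex of the mice are not given in the labels. The chambers were flushed with cold saline before the hearts were frozen. Each array was labelled with the single dye Cy3, and 6 of the 10 arrays lay on one slide and 4 on another, with all 3 regions on both.

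The alternative pathway is the arm of the complement system that needs no antibody to start. C3 is the central protein of all complement arms, and its fragment C3b forms the convertase with the fragment Bb of factor B (Cfb), which the serine protease factor D (Cfd) cuts out of factor B. Properdin (Cfp) stabilises the assembled enzyme, and factor I (Cfi) helps to end its activity by destroying C3b. Most circulating C3 and factor B come from the liver, factor D is also known as adipsin because fat cells secrete it in large amounts, and properdin is made largely by leukocytes.

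Levels are log2 values of the processed signal after each array's own 75th percentile was subtracted. A level of 0 is that percentile, and a difference of 1 is a doubling. A probe was called different when its adjusted p in limma was below 0.05. Probe 1 of a gene is the brighter and probe 2 the dimmer, and the 2 probes of a gene read the same RNA, so they are not replicates of each other. In heart tissue taken whole, fewer cells of a type and less RNA per cell cannot be told apart. The design text says that separate individuals served each experiment, but nothing ties a sample to an animal, so the p-values measure the spread between these arrays. The cardiomyocyte genes Myh6, Tnnt2 and Tnni3 had levels between 8.85 and 9.69 on all 10 arrays. The mean over the 12 cardiomyocyte genes was lower on every RV array (7.81 to 7.99) than on the LV (8.01 to 8.24) and septum arrays (8.06 to 8.32). This gap was uneven among the 12 genes, which differed by −0.83 to 0.004 from the LV and by −1.87 to 0.08 from the septum. The medians were −0.18 and −0.13. The part of this gap in the results was not tested.

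Cfd showed the widest separation of the regions among the 4 genes, and both of its probes put the RV highest, the septum next and the LV lowest. On probe 1 the level was 4.27, 3.84, 4.22 and 4.57 on RV arrays 1 to 4. It was 3.16, 1.40 and 1.30 on septum arrays 1 to 3, and −1.70, −0.30 and 0.33 on LV arrays 1 to 3. The arrays of the 3 regions did not overlap, and the RV arrays lay much closer together than those of the other regions, where septum array 1 stood high and LV array 1 low. The means were 4.22 ± 0.30 in the RV (SD, n = 4), 1.95 ± 1.05 in the septum (SD, n = 3) and −0.56 ± 1.04 in the LV (SD, n = 3).

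Cfd was 4.78 log2 units higher in the RV than in the LV on probe 1 (SE 0.54, limma adjusted p = 0.0034), which is 27.5-fold with a 95% interval of 11.9-fold to 63.3-fold. Probe 2 gave the same order without overlap, with 3.59, 3.14, 3.61 and 4.03 on the RV arrays, 2.51, 0.74 and 0.66 on the septum arrays and −2.64, −0.60 and −0.29 on the LV arrays. It differed between RV and LV by 4.77 (SE 0.60, limma adjusted p = 0.0043). In this comparison 3.86% of all tested probes were called. Both Cfd probes stayed called when any one of the 10 arrays was left out, with differences of 4.21 to 5.22 on probe 1 and 4.04 to 5.21 on probe 2. The difference on probe 1 was 5.06 within the first slide and 4.06 within the second, and it was called in each. On probe 2 it was 4.98 within the first slide, without passing (limma adjusted p = 0.052), and 4.11 within the second, where it passed.

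The septum lay between the ventricles for Cfd. The RV was 2.27 log2 units above the septum on probe 1 (SE 0.54, 95% interval 1.06 to 3.48), and 2.29 above it on probe 2 (SE 0.60). These differences did not pass after adjustment over all probes (limma adjusted p = 0.073 and 0.10), although every RV array lay above every septum array. Probe 1 passed with the slide as a block (2.23, limma adjusted p = 0.046). Its difference was 3.10 within the second slide and 1.77 within the first, where it did not pass (limma adjusted p = 0.27). Probe 1 also passed without septum array 1 (2.87, limma adjusted p = 0.028), with normexp background correction (2.24) and with Tukey's correction. Probe 2 passed without LV array 1 (2.29, limma adjusted p = 0.049), with normexp (2.20) and with Tukey's correction. Within the slides probe 2 differed by 1.74 on the first, without passing (limma adjusted p = 0.34), and by 3.16 on the second. With the replicate number as a fixed block, in which RV array 4 has no partner and adds nothing, probe 1 stayed short of the threshold at 2.16 (limma adjusted p = 0.11). With the number as a random block probe 1 passed (2.21, limma adjusted p = 0.032), as did probe 2 (2.20, limma adjusted p = 0.049). The septum exceeded the LV by 2.51 on probe 1 (SE 0.57, 95% interval 1.22 to 3.80, unadjusted p = 0.0016 in limma) and by 2.48 on probe 2. No probe on the array was called between the septum and the LV (limma adjusted p = 0.54 and 0.76 for the Cfd probes). A total of 862 of the 30234 probes, 2.85%, had an unadjusted p below 0.05 in that comparison, and both Cfd probes were among them. Under the test that the study's methods name, with Tukey's correction, 167 probes passed between septum and LV, and the Cfd probes were among them. All septum arrays lay above all LV arrays for both Cfd probes, as they did for 3.55% of all probes.

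**Figure D1:**
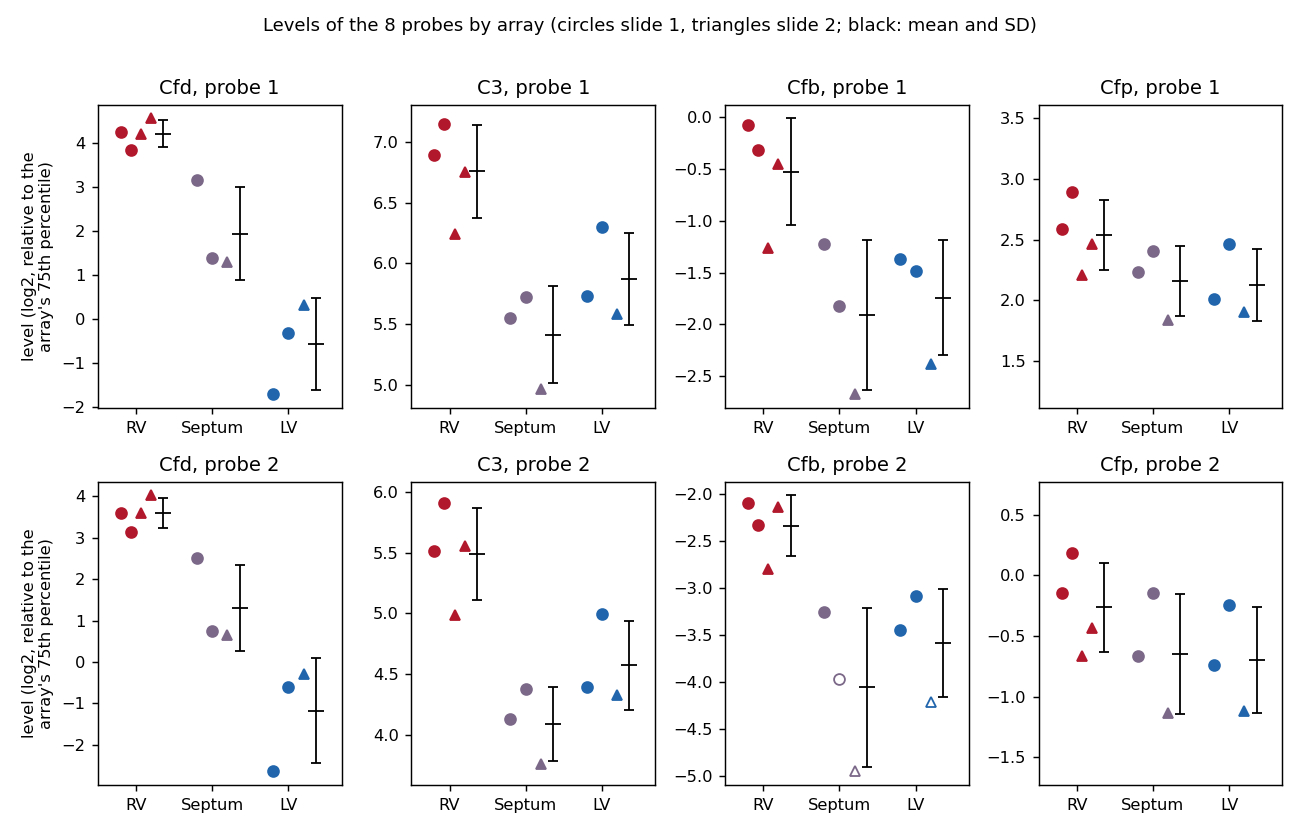
Level of each of the 8 probes on each of the 10 arrays (y axis, log2 relative to the array's 75th percentile, with its own range in each panel), by region (x axis). Circles are arrays of the first slide and triangles those of the second, open symbols mark a probe not well above background, and black bars give the mean and SD. The 3 regions are apart for Cfd, the RV arrays lie above the septum arrays for C3, and the regions overlap for Cfp.

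C3, the protein that the convertase cuts, was well above background on all arrays and had its highest mean in the RV. On probe 1 its level was 6.89, 7.15, 6.24 and 6.75 on RV arrays 1 to 4, against 5.55, 5.73 and 4.97 on the septum arrays and 5.73, 6.30 and 5.58 on the LV arrays. Every RV array lay above every septum array, while RV array 3 lay just below LV array 2. The means were 6.76 ± 0.38 (SD, n = 4) in the RV, 5.41 ± 0.40 (SD, n = 3) in the septum and 5.87 ± 0.38 (SD, n = 3) in the LV. The order of the septum and the LV was thus the reverse of that for Cfd, but the arrays of these regions overlapped for C3, with a difference of −0.46 (95% interval −1.08 to 0.17) for septum minus LV. Probe 2 gave the same picture, with 5.51, 5.91, 4.99 and 5.56 on the RV arrays, 4.13, 4.37 and 3.76 on the septum arrays and 4.39, 4.99 and 4.32 on the LV arrays.

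C3 was 1.34 log2 units higher in the RV than in the septum on probe 1, or 2.54-fold (95% interval 1.69-fold to 3.81-fold, limma adjusted p = 0.036), and 1.40 higher on probe 2 (limma adjusted p = 0.024). These calls were close to the threshold. Probe 1 fell short when RV array 1, 2 or 4 was left out (1.30, 1.21 and 1.35), when septum array 1, 2 or 3 was left out (1.41, 1.50 and 1.12) and when LV array 1 was left out (1.34), and its limma adjusted p over the 10 omissions ran from 0.021 to 0.12. Probe 2 lost its call without the same RV and septum arrays (1.24 to 1.55), and kept it when RV array 3 or any single LV array was left out. Within the slides the difference on probe 1 was 1.38 and 1.53, and it passed in neither. Both probes also fell short without the filter on dim probes. They fell short too with Tukey's correction and the added adjustment over probes, while their Tukey p before that adjustment was 0.0064 and 0.0033. With the replicate block the difference on probe 1 was 1.35 and passed more clearly (limma adjusted p = 0.0044).

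Against the LV, C3 was 0.89 higher in the RV on probe 1 (SE 0.26, 95% interval 0.30 to 1.47, 1.85-fold) and 0.92 higher on probe 2 (SE 0.24), without passing (limma adjusted p = 0.096 and 0.070). Probe 2 passed when RV array 3 was left out (1.09, limma adjusted p = 0.040). The Tukey p was 0.046 on probe 1 and 0.028 on probe 2, and neither passed once the adjustment over probes was added. Both probes passed in the fits with a block. On probe 1 the RV minus LV difference was 0.98 with the slide as a block (limma adjusted p = 0.0075) and 0.89 with the replicate block (limma adjusted p = 0.0087). The study picked Cfd and C3 from these same arrays, so their calls here are no independent evidence.

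The promoter windows of C3 and Cfd are shown because these were the 2 members with a call, and the order of the septum and the LV was not the same for them. Each holds 250 bases before and 50 bases after the RefSeq transcription start, 5′ to 3′ on the gene's strand, in build GRCm38.p6. The Cfd window lies at chr10:79890603-79890902 on the plus strand and the C3 window at chr17:57228087-57228386 on the minus strand. Capitals mark matches to TTNNGNAA, a core of the sites bound by C/EBP factors, which are known from liver and fat, and to the letters TATAAA, both searched on both strands.
C3: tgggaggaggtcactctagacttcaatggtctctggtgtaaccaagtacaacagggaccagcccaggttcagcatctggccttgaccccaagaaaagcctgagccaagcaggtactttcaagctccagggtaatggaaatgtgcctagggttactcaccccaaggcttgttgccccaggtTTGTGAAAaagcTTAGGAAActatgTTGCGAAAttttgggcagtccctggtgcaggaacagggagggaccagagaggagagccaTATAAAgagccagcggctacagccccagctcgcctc
Cfd: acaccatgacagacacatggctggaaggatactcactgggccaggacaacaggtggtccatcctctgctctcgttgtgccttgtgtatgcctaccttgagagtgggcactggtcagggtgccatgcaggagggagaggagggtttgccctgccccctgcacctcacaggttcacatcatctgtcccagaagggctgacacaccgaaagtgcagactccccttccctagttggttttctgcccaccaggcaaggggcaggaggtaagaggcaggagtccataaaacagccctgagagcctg

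The C3 window held 3 matches to TTNNGNAA, which began at positions −70, −58 and −45 from the start, the last of them on both strands. It also held 1 TATAAA, which began 14 bases after the annotated start, and no match overlapped one of another motif. The Cfd window and that of Cfp (chrX:20931506-20931805, minus strand) held neither motif, and none of the 3 windows held CCAAT. Among all 32851 RefSeq promoter windows of this length, 40.7% held TTNNGNAA at least once and 3.60% at 3 or more positions, 13.6% held TATAAA and 37.4% held CCAAT. These matches describe the letters of the windows, and binding was not measured.

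Cfb, which supplies the catalytic subunit of the convertase, lay higher on most RV arrays without passing the test, with a wide spread inside each region. On probe 1 its level was −0.08, −0.31, −1.26 and −0.45 on the RV arrays, −1.23, −1.83 and −2.68 on the septum arrays and −1.37, −1.48 and −2.38 on the LV arrays. RV array 3 was the lowest of its region and lay just under septum array 1, so the RV overlapped the septum but not the LV. Within each region the array or arrays of the second slide included the lowest value.

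Cfb was 1.22 log2 units higher in the RV than in the LV on probe 1 (SE 0.39, 95% interval 0.33 to 2.11, 2.33-fold) and 1.39 higher than in the septum (SE 0.39, 95% interval 0.50 to 2.27, 2.61-fold). Neither passed (limma adjusted p = 0.12 and 0.13). Septum minus LV was −0.17 (95% interval −1.11 to 0.78). With the replicate block both RV differences passed, at 1.19 (limma adjusted p = 0.0057) and 1.36 (limma adjusted p = 0.0040). With the slide as a block they were 1.37 and 1.53 and also passed (limma adjusted p = 0.0059 and 0.0053).

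Cfb probe 2, designed on another transcript record of the gene, read −2.09, −2.33, −2.80 and −2.13 on the RV arrays. It was well above background on all 4 of them, on 2 of 3 LV arrays (−3.45 and −3.09, with −4.21 on the third) and on 1 of 3 septum arrays (−3.26, with −3.97 and −4.95 on the others). All RV arrays lay above all arrays of the other regions. The probe passed the filter on dim probes only through the RV, which favours that order. The RV was 1.25 above the LV (limma adjusted p = 0.12) and 1.72 above the septum (95% interval 0.84 to 2.60, limma adjusted p = 0.063). The septum difference passed without septum array 1 (2.12, limma adjusted p = 0.035) and under several other settings, and with normexp background correction it shrank to 0.71 (limma adjusted p = 0.042). On the septum and LV arrays where the probe was not well above background its level is only an upper bound.

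Cfp, the stabiliser of the convertase, differed least. On probe 1 its level was 2.58, 2.89, 2.21 and 2.46 on the RV arrays, 2.23, 2.41 and 1.84 on the septum arrays and 2.01, 2.46 and 1.91 on the LV arrays. The regions overlapped, and the array of the second slide was the lowest of its region in the septum and the LV, as was RV array 3 in the RV. The RV was 0.41 above the LV (SE 0.20, 95% interval −0.04 to 0.86, limma adjusted p = 0.30) and 0.38 above the septum (95% interval −0.07 to 0.82, limma adjusted p = 0.45). Septum minus LV was 0.03 (95% interval −0.44 to 0.51).

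Cfp probe 2 read −0.15, 0.19, −0.66 and −0.43 on the RV arrays, −0.66, −0.15 and −1.13 on the septum arrays and −0.74, −0.24 and −1.11 on the LV arrays. The regions overlapped again, and array 2 was the highest of each region. The RV was 0.44 above the LV and 0.38 above the septum, with 95% intervals of −0.21 to 1.08 and −0.26 to 1.03. In the replicate block fit, where each array is set against its same-numbered partners, Cfp passed against the LV (0.44, limma adjusted p = 0.020) and the septum (0.40, limma adjusted p = 0.034) on probe 1. In simulated data of this size, limma found 69% of probes raised by 1 log2 unit in the RV against the LV and 71% of those raised against the septum. For probes raised by 2 log2 units it found 96% in each comparison. The simulated arrays varied independently, whereas the measured arrays deviated together within slides. Changes as small as that of Cfp were not simulated, so these shares do not apply to it.

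**Figure D2:**
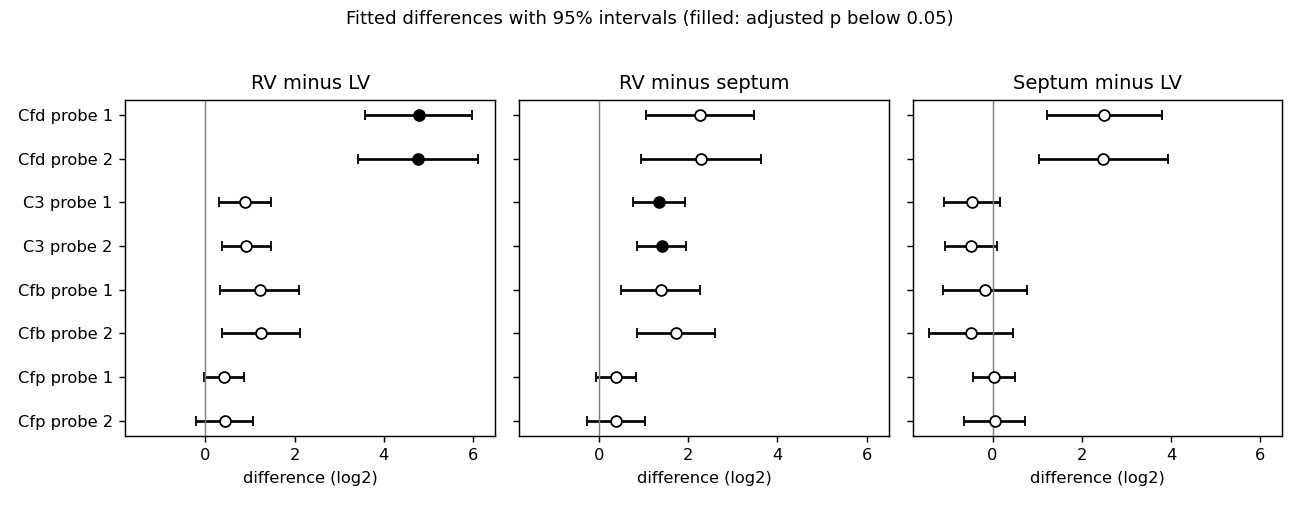
Fitted difference in level of each probe (x axis, log2) for the 3 comparisons of regions, with its 95% interval. Filled circles mark an adjusted p below 0.05. All RV differences lie above 0, from 0.38 for Cfp to 4.78 for Cfd, and for septum minus LV only the Cfd intervals stay clear of 0.

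Counted together, 2 of the 8 probes were called in RV against LV, both of Cfd, beside 3.86% of all tested probes called in either direction and 2.31% called higher in the RV. In RV against septum 2 of the 8 were called, both of C3, against 2.08% of all probes in either direction and 1.2% as higher in the RV. In septum against LV none of the 8 was called, against 0%. When the 3 regions were tested together, 3 of 8 passed, both Cfd probes and C3 probe 2 (limma adjusted p = 0.0063, 0.0097 and 0.032), against 2.78% of all probes, and C3 probe 1 missed narrowly (limma adjusted p = 0.0505).

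The fitted difference was above 0 for 8 of 8 probes in both RV comparisons, where 43% and 42.7% of all tested probes were. The median over the 8 was 1.07 for RV minus LV and 1.39 for RV minus septum, beside medians of −0.04 and −0.03 over all probes. For septum minus LV the median of the 8 was −0.07, with 4 of 8 above 0, beside 46.1% of all probes. All RV arrays lay above all LV arrays for 4 of 8 probes, those of Cfd and Cfb, and for 8.1% of all probes. The RV arrays were likewise clear of the septum arrays for 5 of 8, those of Cfd and C3 and Cfb probe 2, and for 5.86% of all probes. Cfb probe 2, counted in all of these RV figures, passed the filter only through the RV, which favours higher levels there.

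With the replicate block, 8 of 8 were called in RV against LV and 6 of 8 in RV against septum, the Cfd probes being the ones left out. That fit also called far more of the array, 14.9% and 7.12% of all tested probes. With the slide as a block 7 and 5 of the 8 were called, against 17.6% and 8.74%, and with replicate numbers as random blocks 8 and 7 were called, against 19.2% and 10.5%. Within the first slide alone the counts were 1 and 0 (2.72% and 1.58% of all probes), and within the second alone 2 and 2 (1.09% and 0.566%).

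**Figure D3:**
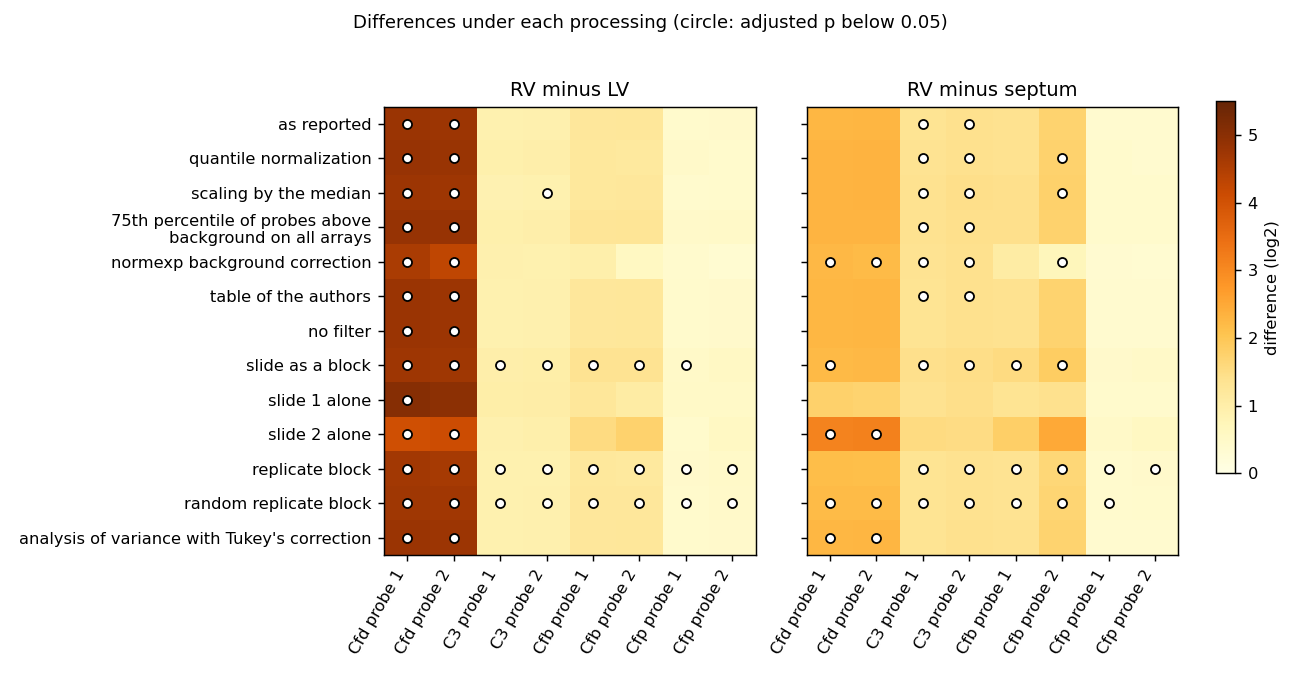
Difference in level of each probe (colour, log2) for RV minus LV and RV minus septum, under each processing (rows). White circles mark an adjusted p below 0.05. Cfd keeps its call against the LV on probe 1 in every row, whereas C3, Cfb and Cfp gain calls in the rows with a block.

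Other genes of the pathway were measured on the same arrays. Of 28 further genes for regulators, receptors and terminal components, all had a named probe and 19 were tested, each by its brightest probe. In RV against LV, 2 of the 19 were called higher, both receptor genes, and 1 lower, beside 3.86% of all tested probes called, with a median difference of −0.00067 and a range of −0.49 to 1.29. In RV against septum none was called higher and 1 lower, beside 2.08% of all probes, with a median of 0.09. Cfi, the protease that destroys C3b, was too dim to test, being well above background on 2 RV arrays and on none of the other regions.

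On the receptor side, C3ar1, the receptor of the fragment C3a, read −2.03, −2.04, −1.60 and −1.60 on the RV arrays, −2.06 to −2.09 on the septum arrays and −1.96 to −2.16 on the LV arrays. RV arrays 3 and 4 were higher than all others, and RV arrays 1 and 2 lay within the LV range. The RV exceeded the LV by 0.21 (SE 0.13, limma adjusted p = 0.42) and the septum by 0.26 (limma adjusted p = 0.42). C5ar2, a receptor of C5a, was 0.53 higher in the RV than in the LV (limma adjusted p = 0.0070). Itgax, a chain of the receptor for cleaved C3b that also marks dendritic cells, was 1.29 higher (limma adjusted p = 0.012). It was well above background on 1 of 3 LV arrays, and its readings on the other LV arrays (−3.74 and −3.63), on which this difference rests in part, are only upper bounds. Itgax also passed the filter on dim probes only through the RV, which favours higher levels there.

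Clu, which encodes clusterin, an inhibitor of the terminal complex, was the gene of the list called lower. Its mean level was 7.41 ± 0.07 (SD, n = 4) in the RV, 7.90 ± 0.07 (SD, n = 3) in the LV and 7.96 ± 0.05 (SD, n = 3) in the septum, and it was lower in the RV by 0.49 and 0.55 log2 units (limma adjusted p = 0.0082 in each). The terminal components C6, C8a, C8b, C9 and Hc, the mouse C5, were too dim to test, while C7 differed by −0.11 between RV and LV without passing.

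Several markers of fat cells were higher in the RV, as Cfd was. Adipoq, the adipokine adiponectin, read 0.40, −0.41, −0.04 and 0.45 on the RV arrays and −1.02, −2.80 and −2.92 on the septum arrays, and was not well above background on any LV array. It was at least 14.5-fold higher in the RV than in the LV, taking for each LV array the higher of its own reading and the lowest signal well above background. The test was of the readings as measured (limma adjusted p = 0.0038), and this lowest fold was not itself tested. As for Cfd, septum array 1 stood above the other septum arrays. Plin1, which coats the lipid droplet, was at least 4.34-fold higher on the same reckoning (limma adjusted p = 0.0038 for the readings as measured). It passed the filter on dim probes only through the RV, which favours higher levels there. Cidec, which fuses lipid droplets, was 4.24 log2 units higher in the RV than in the LV (limma adjusted p = 0.0031) and 2.19 higher than in the septum (limma adjusted p = 0.043).

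Of the 20 fat cell genes 17 were tested. In RV against LV 5 were called higher and none lower, Retn (3.26) and Car3 (4.93) being the others. Over all tested probes 2.31% were called higher. In RV against septum 3 were called higher, beside 1.2% of all probes. The mean level over the 17 ran from 2.13 to 2.37 on the RV arrays, 1.45 to 1.92 on the septum arrays and 0.83 to 1.27 on the LV arrays. None of the other 12 passed, among them Fabp4, Lpl, Pparg and Pnpla2, which heart muscle and vessels also use, and Lep, the fat cell hormone leptin, with means of −0.28 in the RV, −0.14 in the LV and −0.22 in the septum. In RV against LV 7 of the 17 lay above 0, beside 43% of all probes, with a median of −0.15. For 4 of the 17 all RV arrays lay below all LV arrays. The share of all probes in that order is not given, so this count stands without a comparison. The part of the fat cell genes in the Cfd result was not tested.

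Markers of the mesothelium, the layer that covers the heart, lay highest in the RV and lowest in the septum. Msln read 3.80, 3.75, 2.04 and 3.18 on the RV arrays, 0.66, −0.50 and −2.46 on the septum arrays and 1.99, 2.24 and 1.14 on the LV arrays. RV array 3 was the lowest of the RV and septum array 3 the lowest of all, as they were for C3, Cfb and Cfp. Septum array 3 was also the lowest of all for the macrophage markers Adgre1, Cd68 and Csf1r, so this trait is not particular to the mesothelium. Msln was 3.96 above the septum in the RV (limma adjusted p = 0.025) and 1.40 above the LV (limma adjusted p = 0.30). Upk3b differed by 4.01 (limma adjusted p = 0.033) and 1.94 (limma adjusted p = 0.20), but it was well above background on 2 of 3 septum arrays, so its level on septum array 3 (−5.68) is only an upper bound. Wt1 differed by 0.91 and 0.59 without passing.

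Of 17 mesothelial genes tested, 14 were called higher in the RV than in the septum, beside 1.2% of all probes. Against the LV 1 was called higher, beside 2.31% of all probes. The medians of the 17 genes were 2.95 and 1.62. Their mean level ran from −0.62 to 0.70 in the RV, −1.74 to −0.95 in the LV and −3.08 to −1.66 in the septum. The RV stood clear of both other regions, and LV array 3, the lowest of the LV, lay within the septum's range. Their part in the C3 and Cfb results was not tested.

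**Figure D4:**
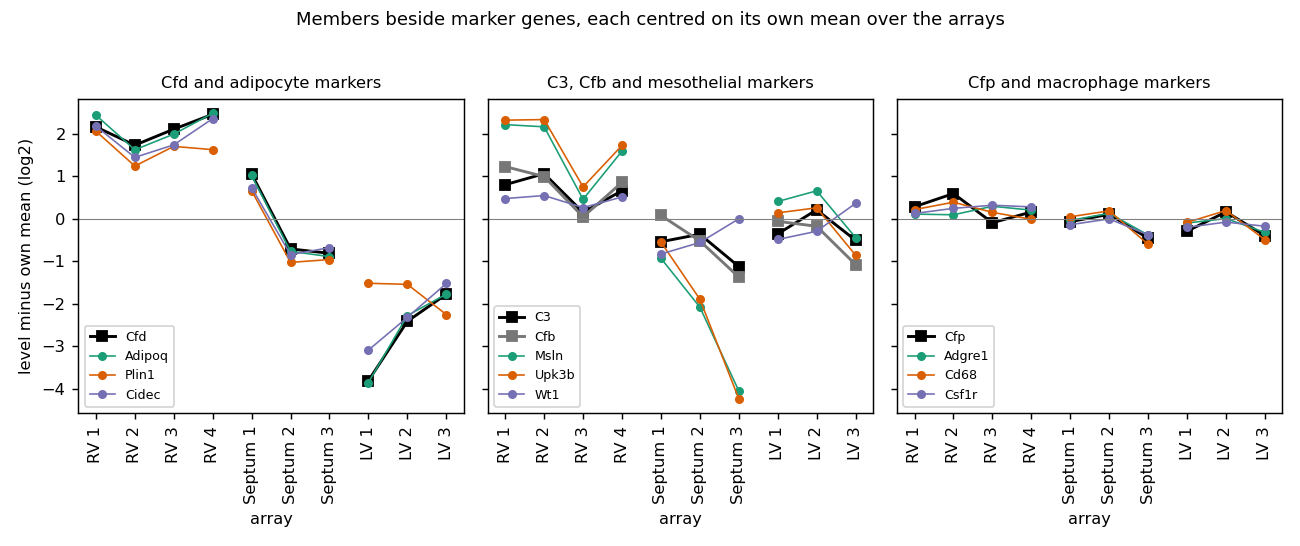
Level of each gene minus its own mean over the 10 arrays (y axis, log2) on each array (x axis), for Cfd beside fat cell markers, C3 and Cfb beside mesothelial markers and Cfp beside macrophage markers. Lines join arrays of a region only to guide the eye. Cfd and Adipoq share the high septum array 1. C3, Cfb and Msln share the low septum array 3, as do Cfp and the macrophage markers. Adipoq was not well above background on the LV arrays.

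Leukocyte markers were set beside Cfp, since leukocytes make properdin. None of 16 macrophage genes was called in any comparison. Of all tested probes 3.86% were called in RV against LV, 2.08% in RV against septum and 0% in septum against LV. All 16 lay above 0 in both RV comparisons, beside 43% and 42.7% of all probes, with medians of 0.31 and 0.28. Adgre1, Cd68 and Csf1r differed by 0.27 to 0.42. None of the 9 neutrophil genes tested (S100a8 and S100a9 among them, Ly6g lacking a named probe), the 7 T and natural killer cell genes (Cd3e, Cd3d, Nkg7) or the 7 blood genes (Hba-a1, Alas2) was called. At the shares of all probes given above, lists this short can hold no call, so the lack of calls tells little. The neutrophil genes differed by −0.33 to 1.12 between RV and LV and by −0.36 to 1.65 between RV and septum. The highest of these belonged to Mmp9, a protease of neutrophil granules, which was well above background on all RV arrays, on 1 of 3 septum arrays and on none of the LV. It was thus tested through the RV alone, which favours higher levels there.

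Liver markers were set beside C3 and Cfb. Alb was well above background on 1 septum array, Apoa1 on none and Ttr on 5 of 10 arrays. Of the 6 liver genes tested 2 were called higher in the RV than in the LV, Ahsg (1.93) and Trf (0.87), beside 2.31% of all probes. In RV against septum 1 of the 6 was called higher, beside 1.2% of all probes. There 2 of the 6 lay above 0, beside 42.7% of all probes, with a median of −0.07 and a lowest of −0.97. Of 12 fibroblast genes 3 were called higher in the RV than in the LV, Pdgfra (0.40), Dcn (0.46) and Tcf21 (0.56), beside 2.31% of all probes. Col1a1 was not among them. Against the septum 1 of the 12 was called higher, beside 1.2% of all probes. All 12 lay above 0 in both RV comparisons, beside 43% and 42.7% of all probes, with medians of 0.53 and 0.31. Of 12 cardiomyocyte genes 1 lay above 0 in RV against LV, beside 43% of all probes, with a median of −0.18. In RV against septum 4 of the 12 lay above 0, beside 42.7% of all probes. For 4 of the 12 all RV arrays lay below all LV arrays, again without a share of all probes to set beside it. Mybpc3, a myosin-binding protein of the thick filament, was called lower in the RV, by 0.47 against the LV and 0.40 against the septum (limma adjusted p = 0.0089 and 0.025). The lowest difference from the septum was that of the myosin heavy chain Myh7, at −1.87 without passing (limma adjusted p = 0.082).

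The genes whose levels ran most like those of each member over the 10 arrays were taken from 13629 others that were well above background on all arrays, which leaves out Adipoq and Plin1. The points share arrays and regions, so these are descriptions. For Cfd they were Cidec (Pearson r = 0.995), Hp (0.993), Car3 (0.992), Cyp2e1 (0.979) and Retn (0.970). Hp encodes haptoglobin, a plasma protein that binds haemoglobin, and it was 4.01 log2 units higher in the RV than in the LV.

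For C3 the nearest genes were Igfbp6 (0.977), Tns3 (0.969), Pfkfb1 (0.967), Cldn15 (0.967) and Slc7a4 (0.961), of which Igfbp6 and Cldn15 belong to the mesothelial list. For Cfb they were Rarres2, the precursor of chemerin (0.979), Dpp4 (0.973), Efemp1 (0.970), Pdpn (0.967) and Abcb1b (0.967). For Cfp they were Serpina3m (0.960), Cxcr6 (0.958), Lncpint (0.954), Ccl6 (0.951) and S100a11 (0.947). No gene was among the nearest 5 of more than 1 member. Among the marker genes, r with C3 was 0.91 for Msln (rank 57 of the 13629), 0.84 for Csf1r, 0.78 for Pdgfra and 0.61 for Wt1. With Cfb it was 0.87 for Msln (rank 191), 0.83 for Dcn, 0.77 for Cd68 and 0.38 for Wt1. With Cfd it was 0.86 for Pdgfra, 0.81 for Dcn, 0.75 for Csf1r and 0.38 for Msln. With Cfp it was 0.88 for Cd68 (rank 61), 0.72 for Csf1r and 0.69 for both Msln and Adgre1.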

How the data were processed

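Hearts of C57BL/6N mice were divided into RV, LV and septum, and total RNA was labelled with Cy3 and hybridised to Agilent SurePrint G3 mouse arrays. The deposited scanner files hold spot intensity values that the authors made with Agilent's program Feature Extraction, whose headers and submission notes give version 11.5.1.1 and which subtracts background and removes spatial trends. A deposited table holds the authors' log2 values from GeneSpring, which matched the values computed here within 0.05 once a constant was removed for each array. Regions and replicate numbers were taken from sample titles.

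From the processed intensity, control and outlier spots were dropped, spots of a probe averaged, and log2 levels set relative to the array's 75th percentile. Between 53.7% and 64% of probes per array were well above background and no spot was saturated. A probe was tested if all arrays of 1 or more regions had it well above background. In limma (version 3.58.1, R 4.3.3) each region had its own mean and the 10 arrays shared 1 estimate of the spread, with Benjamini-Hochberg adjustment over 30234 probes, after tests on simulated data. The number of arrays limits the precision. Accessions gave symbols for 32994 of 56605 probes through RefSeq (GRCm38.p6), and the array design names build mm9, so no probe coordinates are given.

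The members and gene lists were chosen with earlier results of these data known. Some genes of the pathway list are not reported here and are left out of its counts. The text names every member probe, the other pathway genes called in a comparison with C3ar1 and Cfi, the defining markers of each cell type list, and the 5 genes most like each member. Other list genes (Retn, Car3, Fabp4, Lpl, Pparg, Pnpla2, Lep, Ahsg, Trf, Tcf21, Mybpc3, Myh7, Mmp9, C7 and the dim terminal components) were named after their values were seen.

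The main fit paired no samples, and replicate numbers served to pair them only in the alternative fits with a replicate block. This pairing was tried because the 9 same-numbered pairs deviated together from their region means (r = 0.36 to 0.64). Pairs of other numbers on the same slide had r = 0.090 to 0.58 and pairs across slides −0.56 to −0.21, so the pairing comes from the data and lies within slides. RV array 4, which the replicate block leaves without a partner, ran closer to LV array 3 and septum array 3 (r = 0.57 and 0.58) than RV array 3 did (0.43 and 0.44), so on the second slide the numbers may not name the nearest partner. Alternatives were other scalings, normexp background correction, the authors' table, no filter, slide and replicate blocks, each slide alone and each array left out. Another was the study's analysis of variance with Tukey's correction. Here a pair of regions counted only if the variance test passed an added Benjamini-Hochberg adjustment. The files hold no mean signal, so normexp used the median signal.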

Additional observations from a re-analysis of the deposited data

How the results depend on the processing

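Under the 12 other settings and the 10 omissions of an array, the direction of both RV differences was kept for all 8 probes. Of the values of single probes, 449 kept direction and side of the threshold, 45 passed newly, 22 no longer passed and 12 turned sign. The sign turned in septum minus LV alone, where no difference was called: for Cfp probe 1 with scaling by the median (−0.030) and slide 2 alone (−0.064) and for Cfp probe 2 likewise (−0.015 and −0.020), and with single arrays left out (Cfp probe 1 −0.088 to 0.20, Cfp probe 2 −0.20 to 0.29, Cfb probe 1 −0.51 to 0.22). The count of 2 member probes called in RV against LV became 7 with the slide as a block, 8 with the replicate block and with the random replicate block, and 1 with slide 1 alone. The count of 2 in RV against septum became 5 with normexp, 5 with the slide as a block, 6 with the replicate block, 7 with the random replicate block, and 0 without a filter and with slide 1 alone. The count of 0 in septum against LV became 2, the Cfd probes, with Tukey's correction. The count of 3 for the regions together became 5 with quantile normalization and with normexp, 6 with the slide as a block, 8 with the replicate block, 7 with the random one and 0 with slide 1 alone. Leaving out an array gave 2 to 3, 0 to 2, 0 to 0 and 2 to 4 calls. Leaving out RV array 1, 2 or 4 or septum array 2 or 3 gave the 0 in RV against septum. The causes were not tested. Cfb probe 2 was near background outside the RV, which limits its sizes.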
